A study of Mus musculus with 9 samples.

Results

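Cohesin is the ring-shaped protein complex that holds sister chromatids together between replication and chromosome segregation. The ring consists of the ATPases SMC3 and SMC1, closed by a kleisin subunit, and a STAG protein binds to the kleisin. Mitotic rings carry SMC1A, RAD21 and either STAG1 or STAG2, whereas meiotic rings can carry SMC1B, REC8 or RAD21L, and STAG3 in their place. In the mouse ovary, meiotic cohesion is known to be laid down in the fetus and to last until the kleisin is cut at the meiotic divisions, with shugoshin 2 (Sgol2) protecting it at centromeres during the first of them. The genes described here were the 9 cohesin subunits Rec8, Smc1b, Stag3, Rad21l, Smc3, Smc1a, Stag1, Stag2 and Rad21, together with Sgol2. They were taken by symbol, and each of the 10 members had 1 entry among the 37980 genes of the deposited tables.

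RNA was sequenced from female germ cells of 4 kinds, all of the C57BL/6 strain according to the labels. E12.5 PGCs, the primordial germ cells of embryos at day 12.5, were represented by 3 libraries, FGSCs (female germline stem cells) by 2, GV oocytes by 2 and MII oocytes by 2. PGCs of XX genital ridges and FGSCs of postnatal ovaries (3 to 5 days of age) were sorted as fluorescent cells of Mvh-cre;ROSA mT/mG mice, in which the promoter of the germ cell gene Mvh drives Cre and Cre switches on GFP. Fully grown oocytes came from 6-week-old C57BL/6 mice primed with gonadotropin, and the GV oocytes of the labels were taken as these, while the collection of the MII oocytes is not given in the sources used here. The deposited tables hold 1 FPKM value, a fragment count scaled by transcript length and sequencing depth, for each gene and cell type, pooled by the authors over the libraries. No spread between libraries can therefore be given, no difference below has a replicate check, and the read depth is unknown. A difference is called here when log2(FPKM + 1) differed by 1 or more, which is at least 2-fold on that scale, in genes with at least 1 FPKM in one of the compared cell types.

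The labels were checked against marker genes. Every cell type held RNA of the germ cell helicase gene Ddx4 (Mvh), between 17.2 FPKM in MII oocytes and 64.0 FPKM in E12.5 PGCs. Its promoter also drove the Cre used to sort the PGCs and FGSCs. The germ cell genes Dazl, Dppa3 and Mael were nowhere below 7.55 FPKM, the value of Mael in MII oocytes. Dnd1, a further germ cell gene, fell to 0.965 FPKM in MII oocytes, beside 3.08 (GV oocytes), 86.3 (FGSCs) and 31.3 (E12.5 PGCs). The summed FPKM of 7 oocyte genes was 15.2 in E12.5 PGCs, 14.4 in FGSCs, 9939 in GV oocytes and 26164 in MII oocytes. Genes of other cell types were also measured, with sums over 7 granulosa and pregranulosa genes of 116, 263, 22.6 and 18.4 FPKM and sums over 5 erythroid genes of 14351, 5212, 21.5 and 0 FPKM in the same order of cell types. The erythroid sum of the FGSCs came mostly from the embryonic globin genes Hbb-y (3273 FPKM), Hba-x (1599 FPKM) and Hbb-bh1 (329 FPKM). Where this RNA came from in FGSCs, whose postnatal age is given by the methods of the paper, was not tested. Of 4 genes of meiotic entry, Stra8, which marks that entry, was under 0.1 FPKM in every cell type, but the others were not. Sycp3 had 21.6, 9.30, 79.9 and 88.0 FPKM from E12.5 PGCs to MII oocytes. In the same order, Sycp1 had 2.54, 0.805, 18.7 and 19.0 FPKM, and Dmc1 a listed 0, 2.04, 0.0922 and 9.45 FPKM. The total over all genes ranged between 417955 FPKM for FGSCs and 1232437 FPKM for MII oocytes, so differences are also given after rescaling to equal totals where this changes a direction or a call. Rescaling to equal totals moved the median log2 difference of all genes from -0.09 to 0.56 for FGSCs over E12.5 PGCs and from 0.37 to -0.60 for MII oocytes over GV oocytes.

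In the deposited tables (mm9), the meiotic genes spanned chr14:56236874-56244232 (Rec8), chr15:84895121-84962387 (Smc1b), chr5:138721468-138753621 (Stag3) and chr2:151471140-151494269 (Rad21l). The mitotic or shared genes spanned chr19:53674886-53720323 (Smc3), chrX:148450971-148497237 (Smc1a), chr9:100498217-100858964 (Stag1), chrX:39502494-39630362 (Stag2) and chr15:51794151-51823306 (Rad21). Among the meiotic subunits, each gene had its own pattern over the cell types. For Rec8, the meiotic kleisin, E12.5 PGCs held 0.813 FPKM, FGSCs 14.1, GV oocytes 0.206 and MII oocytes 0.0806. Only in FGSCs was it above 1 FPKM, and its value in GV oocytes was 1.46% of that in FGSCs. For Smc1b, the meiotic SMC1 protein, E12.5 PGCs held 17.5 FPKM, FGSCs 9.23, GV oocytes 21.6 and MII oocytes 9.35. Its highest value, in GV oocytes, was 2.35 times its lowest, in FGSCs, as deposited. For Stag3, the meiotic STAG protein, E12.5 PGCs held 16.6 FPKM, FGSCs 22.8, GV oocytes 4.43 and MII oocytes 0.410. It was thus present in both earlier cell types and lowest in MII oocytes, at 1.79% of its value in FGSCs. Rad21l, an alternative meiotic kleisin, was under 1 FPKM in every cell type, with 0.0112 FPKM for E12.5 PGCs, a listed 0 for FGSCs, 0.687 for GV oocytes and 0.787 for MII oocytes.

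Smc3, the subunit shared by every ring, had the highest level of the 10 members in E12.5 PGCs, with 125 FPKM, while FGSCs held 34.7 FPKM, GV oocytes 12.3 and MII oocytes 77.4. For Rad21, the mitotic kleisin, E12.5 PGCs held 39.1 FPKM, FGSCs 13.8, GV oocytes 8.65 and MII oocytes 47.2. Both were thus lowest in GV oocytes. For Smc1a, the X-linked mitotic SMC1 protein, E12.5 PGCs held 25.4 FPKM, FGSCs 26.7, GV oocytes 5.08 and MII oocytes 7.25, so that it was low in both oocyte stages. For Stag1, a mitotic STAG protein, E12.5 PGCs held 14.2 FPKM, FGSCs 8.72, GV oocytes 2.71 and MII oocytes 14.6. For Stag2, its X-linked counterpart, E12.5 PGCs held 4.41 FPKM, FGSCs 2.63, GV oocytes 1.62 and MII oocytes 21.2. Stag1 was therefore above Stag2 in the first 3 cell types and below it in MII oocytes. For Sgol2, E12.5 PGCs held 14.3 FPKM, FGSCs 8.94, GV oocytes 2.79 and MII oocytes 31.4. As deposited, all 5 mitotic or shared subunits and Sgol2 had their lowest value in GV oocytes, but after rescaling to equal totals Smc1a was lower in MII than in GV oocytes. In the deposited tables Sgol2 has the same span as Kctd18, from 58011945 to 58082743 on chromosome 1 of mm9, and the same cell types held 14.3, 5.60, 2.07 and 9.38 FPKM of Kctd18. Whether reads were assigned by strand is not given in the sources used here, so part of either value may belong to the other gene. Smc1b, Smc1a and Stag1 also share their spans with the predicted genes Gm10923, Gm15267 and Gm8661, each of which had under 2 FPKM in every cell type.

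**Figure D1:**
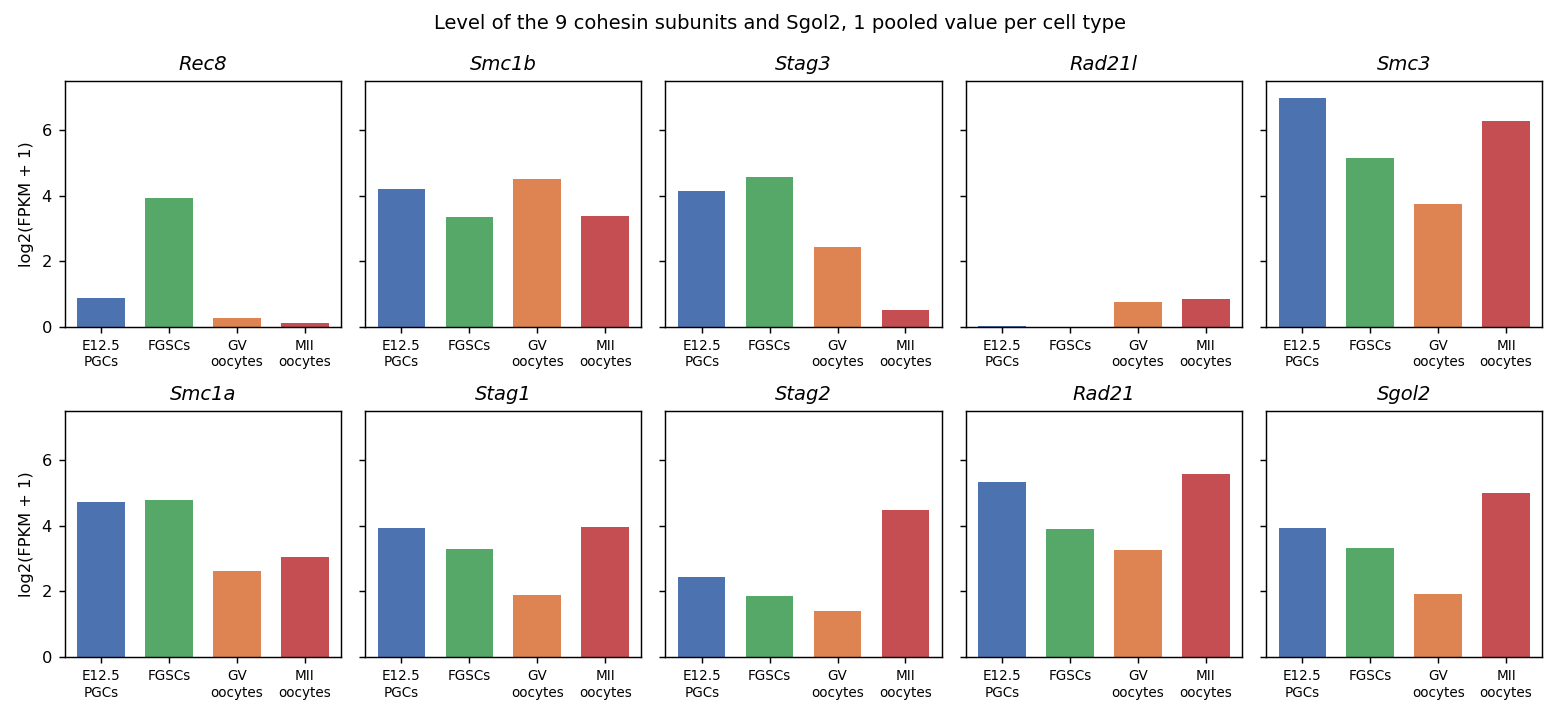
Level of each of the 9 cohesin subunits and Sgol2 as log2(FPKM + 1), with 1 bar per cell type, from E12.5 PGCs on the left to MII oocytes on the right. Bars are values pooled by the authors and carry no error. Rec8 stands out in FGSCs alone, and Smc3, Stag1, Stag2, Rad21 and Sgol2 are each lower in GV oocytes than in the other cell types.

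The promoters of 8 of the 10 members were found in RefSeq (GRCm38.p6), each 300 bases long with 250 bases before the start site. Stag2 and Rad21 had no entry. E2F factors are known to act on genes of the cell cycle, and in mouse somatic cells the repressor E2F6 is known to bind the promoters of Smc1b and Stag3. The promoters of 4 members are shown here because they belong to the 3 meiotic subunits that were above 1 FPKM in some cell type and to Smc3, the shared subunit. Capitals mark the E2F core TCCCGC or its reverse complement GCGGGA. The windows are chr14:55617916-55618215 on the plus strand for Rec8, chr15:85131908-85132207 on the minus strand for Smc1b, chr5:138280259-138280558 on the plus strand for Stag3 and chr19:53600146-53600445 on the plus strand for Smc3.
Rec8: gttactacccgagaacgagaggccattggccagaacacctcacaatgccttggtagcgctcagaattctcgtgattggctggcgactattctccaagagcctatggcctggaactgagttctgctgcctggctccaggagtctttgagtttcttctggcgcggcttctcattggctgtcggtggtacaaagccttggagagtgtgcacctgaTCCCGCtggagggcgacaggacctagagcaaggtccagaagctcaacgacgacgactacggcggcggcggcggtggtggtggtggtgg
Smc1b: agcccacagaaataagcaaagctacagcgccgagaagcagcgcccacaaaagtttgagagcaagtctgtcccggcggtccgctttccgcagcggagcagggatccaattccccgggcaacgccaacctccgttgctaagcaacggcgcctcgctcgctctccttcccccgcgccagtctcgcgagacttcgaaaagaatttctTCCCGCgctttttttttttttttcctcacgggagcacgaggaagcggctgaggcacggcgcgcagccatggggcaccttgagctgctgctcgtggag
Stag3: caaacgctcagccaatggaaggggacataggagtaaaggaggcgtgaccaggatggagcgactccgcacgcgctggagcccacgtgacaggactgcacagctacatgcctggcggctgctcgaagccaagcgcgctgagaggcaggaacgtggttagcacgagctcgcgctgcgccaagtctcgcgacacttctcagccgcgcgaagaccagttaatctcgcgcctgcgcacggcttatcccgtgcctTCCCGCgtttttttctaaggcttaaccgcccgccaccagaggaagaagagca
Smc3: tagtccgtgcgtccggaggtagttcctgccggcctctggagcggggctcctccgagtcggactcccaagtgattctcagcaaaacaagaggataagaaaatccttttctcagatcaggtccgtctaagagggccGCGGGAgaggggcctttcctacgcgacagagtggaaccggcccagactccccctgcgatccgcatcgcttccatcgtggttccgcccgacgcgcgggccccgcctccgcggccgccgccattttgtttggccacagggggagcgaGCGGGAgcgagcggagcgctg
The E2F core lay 38 bases before the start site in Rec8, 47 bases before it in Smc1b and 2 bases before it in Stag3, while Smc3 had 1 match 116 bases before the start and 1 further downstream of it. It was found on either strand in 7 of the 8 members with a promoter, meiotic and mitotic alike, against 20.1% of all 32544 promoters of that length. The count of members is per gene and the share is per promoter, and Sgol2 had 2 windows with 1 match in each. The member without a match was Rad21l, whose promoter had 29.0% G and C and 2 CpG dinucleotides, where those of Rec8, Smc1b, Stag3 and Smc3 had 18, 29, 30 and 32 CpG. The promoters with a match had between 11 (Sgol2) and 43 (Stag1) CpG, beside a median of 7 over all promoters. The share of 20.1% was thus not matched for base composition. The E-box CACGTG was found in Stag3 alone of the 8 members, 170 bases before its start, and in 7.17% of all promoters. The motif CNCCTCAG was found in none of the 8 on either strand and in 7.99% of all promoters. The matches are descriptions of letters and not of bound sites, and meiotic and mitotic members with unlike patterns over the cell types shared the E2F core.

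Because FPKM is a value per length, alternative subunits can be set against each other within a cell type, and such shares do not depend on the scaling between cell types. Of the summed FPKM of the SMC1 pair, Smc1b made up 40.7% in E12.5 PGCs, 25.7% in FGSCs, 81.0% in GV oocytes and 56.3% in MII oocytes. Smc1b was therefore the major SMC1 transcript in both oocyte stages and the minor one in E12.5 PGCs and FGSCs. Of the kleisins, Rec8 made up 2.04% in E12.5 PGCs, 50.5% in FGSCs, 2.16% in GV oocytes and 0.168% in MII oocytes. Rad21 made up 97.9%, 49.5%, 90.6% and 98.2% in the same order, so that the mitotic kleisin was the major kleisin transcript except in FGSCs, where Rec8 was at a similar level. Of the STAG genes, Stag3 made up 47.1% in E12.5 PGCs, 66.8% in FGSCs, 50.6% in GV oocytes and 1.13% in MII oocytes. In MII oocytes, Stag2 took 58.5% and Stag1 40.4% of the STAG sum. The meiotic variants thus did not go together, as GV oocytes combined a high Smc1b share with a low Rec8 share. MII oocytes had a majority share of Smc1b with Stag3 at 0.410 FPKM and Rec8 at 0.0806 FPKM. With oligo(dT) priming of the cDNA, given by the labels, tail length and RNA amount cannot be told apart in these shares or in comparisons with oocytes.

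**Figure D2:**
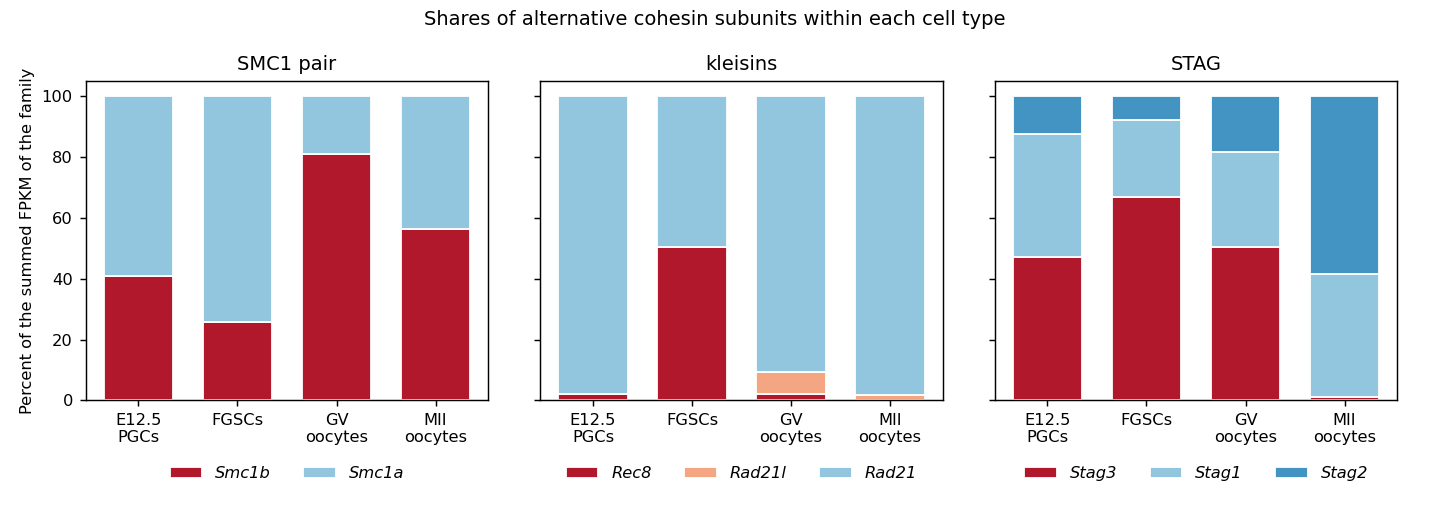
Percent of the summed FPKM of each family of alternative subunits (SMC1 pair, kleisins, STAG) in each cell type, with the meiotic variants in red and orange and the mitotic ones in blue. Smc1b reaches 81.0% in GV oocytes, Rec8 50.5% in FGSCs only, and Stag3 drops to 1.13% in MII oocytes.

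The sums of the families relative to Smc3, which each ring needs once, differed between cell types. These are RNA values and do not give the make-up of the protein rings. The SMC1 pair together was at 0.343 of the Smc3 level in E12.5 PGCs, 1.03 in FGSCs, 2.18 in GV oocytes and 0.214 in MII oocytes. The kleisins together were at 0.319, 0.805, 0.777 and 0.621 of Smc3, and the STAG genes at 0.281, 0.984, 0.715 and 0.468. In E12.5 PGCs no family exceeded 0.343 of the Smc3 level, whereas in GV oocytes the SMC1 pair was above Smc3.

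FGSCs were compared with E12.5 PGCs to see which subunits differed between the postnatal and the fetal germ cells. Rec8, with 14.1 FPKM in FGSCs against 0.813 in E12.5 PGCs, was higher in FGSCs by 3.06 on the log2(FPKM + 1) scale. Smc3 was 3.60 times lower in FGSCs, at 34.7 FPKM against 125 in E12.5 PGCs. Rad21 was 2.83 times lower in FGSCs, at 13.8 FPKM against 39.1. Of the 9 members with at least 1 FPKM in either cell type, these made 1 higher and 2 lower in FGSCs, and among the 13169 genes tested 24.8% were higher and 21.0% were lower by the same rule. The members' median log2 difference was -0.63, beside -0.09 over all genes, and turned to 0.02, beside 0.56, after rescaling to equal totals. The other 6 members were within 2-fold. Smc1a, with 26.7 FPKM in FGSCs against 25.4 in E12.5 PGCs, had a log2 difference of 0.07 as deposited and 0.78 after rescaling to equal totals. After rescaling to equal totals, Stag3 was also called higher (log2 difference 1.15, against 0.44 as deposited), Rad21 was no longer called (-0.76), and the small differences of Stag1 and Sgol2 turned to 0.02 and 0.04. All 7 granulosa genes were above their E12.5 PGC values in FGSCs, 4 of them by at least 2-fold, and none of the 5 erythroid genes was above. After rescaling to equal totals, 6 granulosa genes passed 2-fold, and the erythroid genes Hbb-y, Hbb-bh1 and Alas2 turned to log2 differences of 0.67, 0.11 and 0.53. Foxl2, a defining granulosa gene, had 1.13 FPKM in FGSCs and was listed at 0 in E12.5 PGCs. Of 5 proliferation genes, 3 were lower in FGSCs by at least 2-fold, with Top2a at 49.7 FPKM against 218. Mcm2 was above its E12.5 PGC value, at 89.3 FPKM against 50.3. After rescaling to equal totals, Pcna was no longer called lower (-0.66) and Mcm2 was called higher (1.54). Of the other meiotic genes measured beside Rec8, Sycp3 had 9.30 FPKM in FGSCs against 21.6 in E12.5 PGCs, Sycp1 0.805 against 2.54, and Dmc1 2.04 against a listed 0. The part of other cell types in the values of Rec8 and the rest was not tested, and fewer cells of a type and less RNA per cell cannot be told apart in these bulk samples.

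GV oocytes were then compared with both earlier cell types. Against E12.5 PGCs, Smc3 was 10.2 times lower in GV oocytes, at 12.3 FPKM against 125. Stag1 was 5.22 times lower in GV oocytes (2.71 FPKM against 14.2), Sgol2 5.13 times lower, Smc1a 5.00 times lower and Rad21 4.52 times lower. Stag3 was 3.74 times lower and Stag2 2.72 times lower, the last with a log2 difference of -1.05 as deposited and -0.93 after rescaling to equal totals. Of the 8 members tested, 7 were therefore lower and none was higher, where 31.3% of the 13964 genes tested were lower and 34.3% were higher. The members' median log2 difference was -2.02, beside 0.01 over all genes. Smc1b did not go with the others, at 21.6 FPKM in GV oocytes and 17.5 in E12.5 PGCs, a log2 difference of 0.29. Proliferation genes were lower in GV oocytes as well, in 4 of 5 by at least 2-fold, with Top2a at 6.49 FPKM in GV oocytes and 218 in E12.5 PGCs. Erythroid genes were lower in GV oocytes in 5 of 5, with sums of 21.5 FPKM against 14351. Granulosa genes were lower in 4 of 7 (22.6 FPKM against 116), but Foxl2 was higher, at 3.39 FPKM against a listed 0. Endothelial genes were lower in 2 of 3 tested (3.39 FPKM against 25.9) and leukocyte genes in 2 of 2 tested (1.36 FPKM against 9.64). The part of these other cell types in the cohesin values was not tested.

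Against FGSCs, Rec8 was lower in GV oocytes by the widest margin, at 0.206 FPKM against 14.1 in FGSCs, a log2 difference of -3.65. Smc1a was 5.25 times lower in GV oocytes, at 5.08 FPKM against 26.7. Stag3 was 5.15 times lower, at 4.43 FPKM in GV oocytes and 22.8 in FGSCs. Smc3, Stag1 and Sgol2 were 2.83, 3.21 and 3.20 times lower in GV oocytes. Smc1b was the only member called higher, at 21.6 FPKM in GV oocytes and 9.23 in FGSCs, and its log2 difference of 1.15 became 0.78 after rescaling to equal totals. Of the 9 members tested, 6 were lower and 1 was higher in GV oocytes, beside 28.0% and 28.1% of the 14253 genes tested, with a median log2 difference of -1.39, beside -0.05 over all genes. Rad21, with 8.65 FPKM in GV oocytes against 13.8 in FGSCs, was within 2-fold as deposited (-0.62) and past it after rescaling to equal totals (-1.06). Of the 7 granulosa genes, 6 were also lower in GV oocytes than in FGSCs by at least 2-fold. Foxl2 was instead higher in GV oocytes, at 3.39 FPKM against 1.13, a log2 difference of 1.04 that became 0.92 after rescaling to equal totals. Also lower were 5 of 5 erythroid genes (21.5 FPKM against 5212 in sum) and 3 of 3 endothelial genes tested (3.39 FPKM against 34.5). So were 2 of 3 leukocyte genes tested (1.36 FPKM against 8.88) and 2 of 5 proliferation genes (251 FPKM against 377). The part of all these genes in the cohesin values was not tested. This comparison and the one with E12.5 PGCs share the GV oocyte value.

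MII oocytes were compared with GV oocytes to follow the transcripts through meiotic maturation, in which the oocyte is known to make little new RNA and to lengthen or shorten the poly(A) tails of stored messages. The cDNA was primed with oligo(dT) according to the labels, so a change of tail length and a change of RNA amount cannot be told apart in these values. Stag2 was 13.1 times higher in MII oocytes, at 21.2 FPKM against 1.62 in GV oocytes. Sgol2 was 11.2 times higher, at 31.4 FPKM in MII oocytes and 2.79 in GV oocytes. Smc3 was 6.31 times higher (77.4 FPKM in MII oocytes, 12.3 in GV oocytes), Rad21 5.46 times and Stag1 5.39 times. Of the meiotic subunits, Smc1b was 2.31 times lower in MII oocytes, at 9.35 FPKM against 21.6. Stag3 was at 0.410 FPKM in MII oocytes and 4.43 in GV oocytes, a log2 difference of -1.95, while Rec8 and Rad21l were under 1 FPKM in both and were not compared. Of the 8 members tested, 5 were higher and 2 were lower in MII oocytes, where 39.3% of the 13878 genes tested were higher and 30.5% were lower. The members' median log2 difference was 2.197, beside 0.37 over all genes, and became 1.20, beside -0.60, after rescaling to equal totals. The 7 calls were the same, in both directions, after rescaling by the median ratio or to equal totals, but their sizes moved. At equal totals the log2 difference of Stag2 became 2.23 (3.08 as deposited), that of Smc3 1.48 (2.56), that of Smc1b -2.204 (-1.13) and that of Stag3 -2.74 (-1.95). Smc1a was not called, with a log2 difference of 0.44 that turned to -0.55 after rescaling to equal totals. Of 5 proliferation genes, 3 were higher in MII oocytes, among them Pcna (526 FPKM against 76.9) and Mcm2 (90.5 against 16.4). Cdk1 was lower, at 16.0 FPKM in MII oocytes against 148. After rescaling to equal totals, Mki67 was no longer called higher (0.35). Granulosa genes summed to 18.4 FPKM in MII oocytes and 22.6 in GV oocytes and erythroid genes to 0 and 21.5 FPKM. The granulosa sum in MII oocytes was mostly Gata4 (15.7 FPKM against 5.19 in GV oocytes), and 4 of the 7 granulosa genes were lower in MII oocytes by at least 2-fold, among them Foxl2 (0.0381 against 3.39). The sum of 4 endothelial genes was 45.3 FPKM in MII oocytes against 3.39 in GV oocytes, nearly all of it Pecam1 (43.6 against 2.39), with Cdh5 listed at 0 in MII oocytes, and that of 4 leukocyte genes was 10.1 against 1.36 FPKM, with Ptprc at 0.0638 FPKM against a listed 0. Their part in the cohesin values was not tested.

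**Figure D3:**
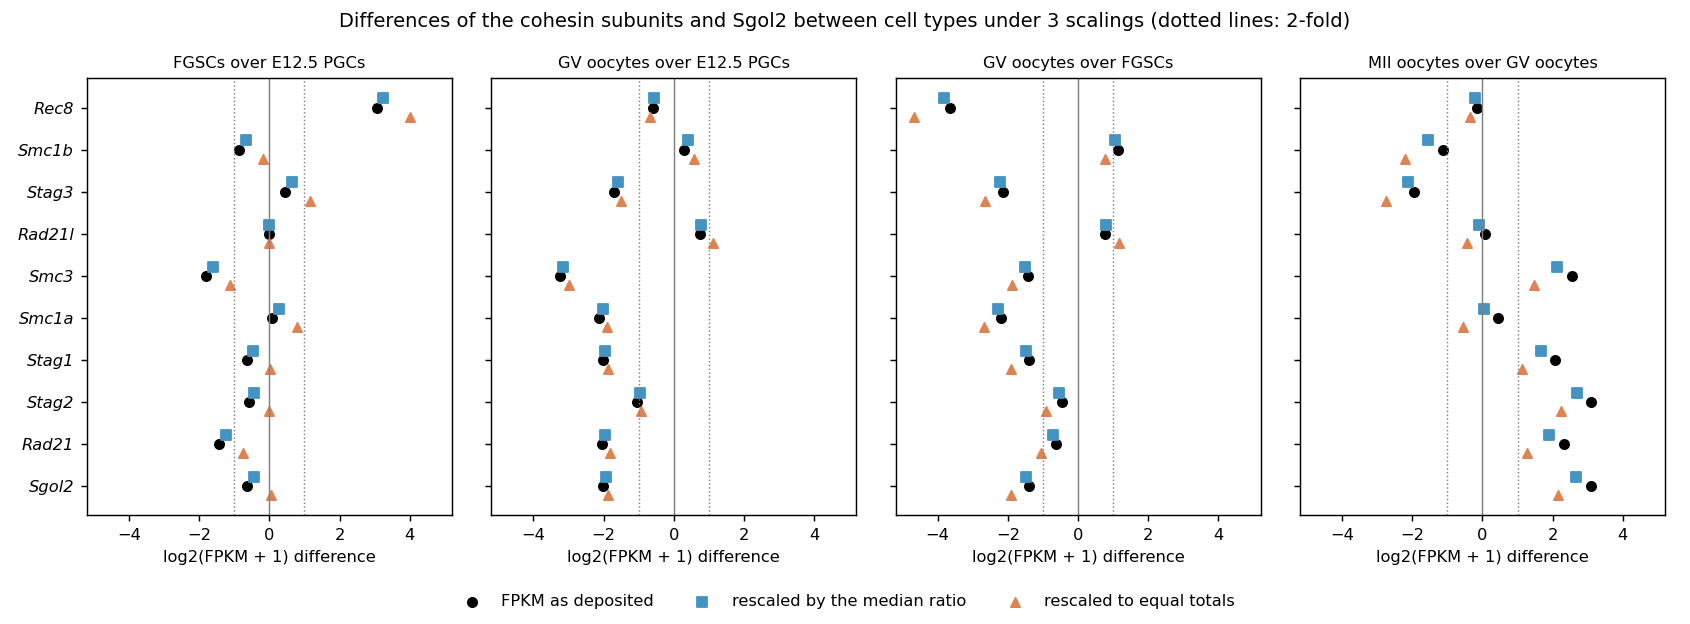
Difference in log2(FPKM + 1) of each member for FGSCs over E12.5 PGCs, GV oocytes over E12.5 PGCs, GV oocytes over FGSCs and MII oocytes over GV oocytes, as deposited (black circles), rescaled by the median ratio over genes (blue squares) and rescaled to equal totals (orange triangles). Dotted lines mark 2-fold. In MII over GV oocytes, Smc3, Stag1, Stag2, Rad21 and Sgol2 lie above 2-fold and Smc1b and Stag3 below it under each scaling.

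The genes that load, lock, protect and cut cohesin were followed as a list of 13. Between MII and GV oocytes, 9 of the 13 were higher in MII oocytes and none was lower, beside 39.3% higher and 30.5% lower over all genes, with a median log2 difference of 1.64 beside 0.37. After rescaling to equal totals 5 were still higher and none was lower, beside 24.9% and 44.0% of all genes. Esco1 and Esco2, the acetyltransferases that lock the ring on chromatin, were at 144 and 300.1 FPKM in MII oocytes, against 8.13 and 26.1 in GV oocytes. Wapal, which releases cohesin from chromosome arms, was 9.48 times higher in MII oocytes, at 139 FPKM against 14.7, and Sgol1, a shugoshin of mitotic centromeres, 7.17 times higher. Pttg1 (securin), the inhibitor of the protease that cuts the kleisin, was at 14030 FPKM in MII oocytes and 1119 in GV oocytes. Espl1 (separase), that protease, was at 41.2 FPKM in MII oocytes and 12.6 in GV oocytes, a log2 difference of 1.64 that became 0.56 after rescaling to equal totals. Nipbl, the cohesin loader, was at 17.6 FPKM in MII oocytes and 4.14 in GV oocytes, a log2 difference of 1.86 that became 0.87 after rescaling to equal totals. Its partner Mau2 was at 3.50 FPKM in MII oocytes and 3.51 in GV oocytes, a log2 difference of -0.01 that became -0.92. Cdca5 (sororin), which keeps acetylated cohesin on chromatin, was 2.21 times higher in MII oocytes, and Ctcf, at whose sites cohesin stops along DNA, was 2.69 times higher, but neither passed 2-fold after rescaling to equal totals (0.01 and 0.27). Pds5a and Pds5b, which bind the kleisin, and Hdac8, the deacetylase of SMC3, were within 2-fold. Pds5a was at 0.893 FPKM in MII oocytes and 1.29 in GV oocytes.

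Between FGSCs and E12.5 PGCs, 2 of the 13 regulators were higher and 5 lower in FGSCs as deposited, beside 24.8% and 21.0% of all genes. After rescaling to equal totals 2 were higher and 2 lower, beside 39.0% and 10.1% of all genes. Mau2 was 4.74 times higher in FGSCs, at 10.6 FPKM against 2.24 in E12.5 PGCs, and Espl1 had 4.36 FPKM in FGSCs against 0.547. Pttg1, with 84.0 FPKM in FGSCs against 325 in E12.5 PGCs, and Esco1, at 4.59 and 19.3 FPKM, were the furthest down. Between GV oocytes and E12.5 PGCs, 2 were again higher in GV oocytes, Espl1 (12.6 FPKM against 0.547) and Pttg1 (1119 FPKM against 325), and 5 were lower, with Pds5b at 1.94 FPKM in GV oocytes and 13.6 in E12.5 PGCs and Wapal at 14.7 and 69.6. Over all genes 34.3% were higher and 31.3% lower, and after rescaling to equal totals Esco1 (-0.90) and Esco2 (-0.77) were no longer among the regulators called lower. Between GV oocytes and FGSCs, Pttg1 and Espl1 were higher in GV oocytes and Mau2 was lower, beside 28.1% and 28.0% of all genes, and after rescaling to equal totals Pds5b (-1.39) and Wapal (-1.29) were also called lower. As deposited, Espl1 was thus highest in MII oocytes and lowest in E12.5 PGCs, with FGSCs and GV oocytes in between.

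**Figure D4:**
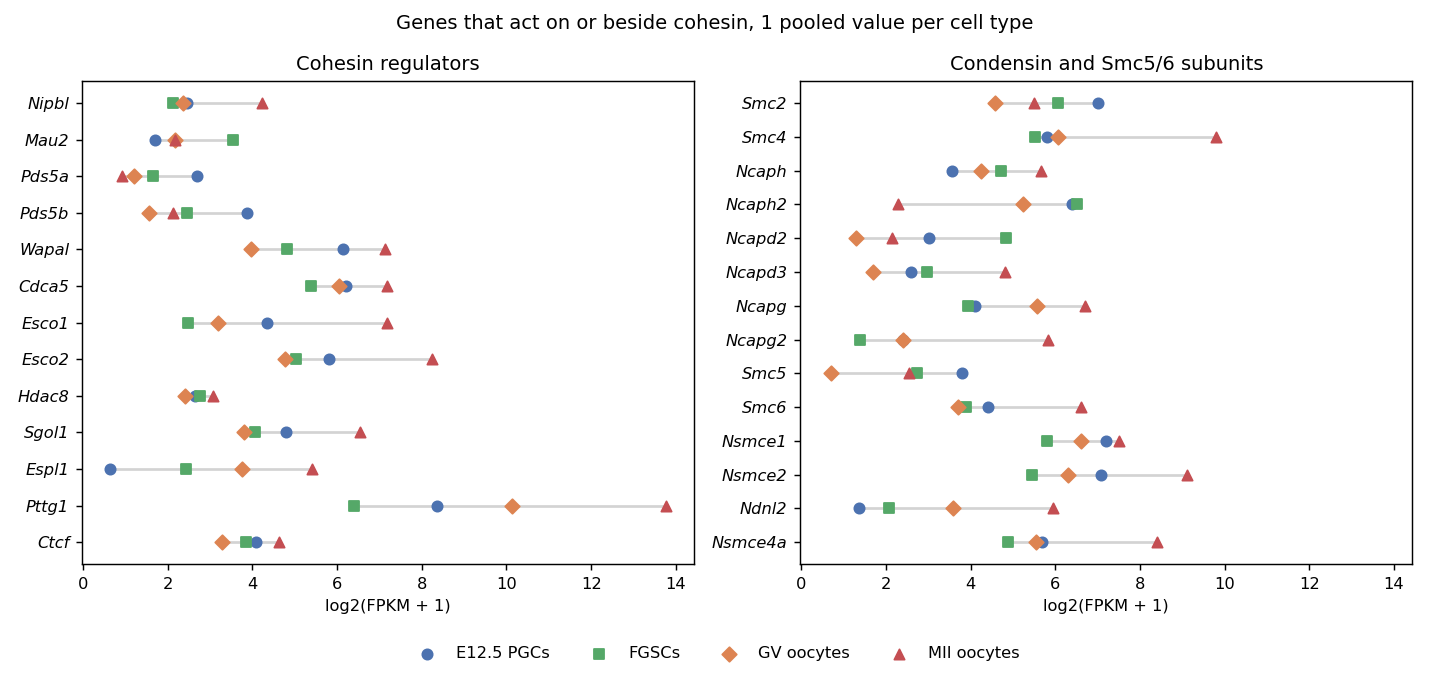
Level, as log2(FPKM + 1), of 13 cohesin regulators and 14 subunits of condensin and Smc5/6 in E12.5 PGCs (blue circles), FGSCs (green squares), GV oocytes (orange diamonds) and MII oocytes (red triangles), with grey lines spanning the 4 pooled values of a gene. The MII oocyte value is the highest for most regulators, including Esco1, Esco2, Wapal and Pttg1.

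Genes with the profile closest to each member were sought among 11682 genes with at least 5 FPKM in one cell type, by the Euclidean distance in log2(FPKM + 1) over the 4 cell types. With only 4 pooled values such likeness is a description. Nearest to Rec8 were Vill (distance 0.30), Pcdhga8 (0.38) and St6galnac4 (0.40), and Vill was at 0.801, 11.9, 0.0743 and 0 FPKM from E12.5 PGCs to MII oocytes. Nearest to Smc1b were Tdrd3 (0.28), Txnl4b (0.49) and Gm12976 (0.51). Nearest to Stag3 were Cat (0.31), Ccnd2 (0.33) and Arap1 (0.36). Sgol2 was closest to Rnf213 (0.32) and Nudcd1 (0.45), Stag2 to Acap2 (0.36), Nsun3 (0.38) and Chac2 (0.41), and Smc3 to Scfd1 (0.59), Sat1 (0.65) and Lims1 (0.77). For Smc1a, Stag1 and Rad21 the closest genes were Nt5c3 (0.37), Snx14 (0.34) and Zmynd8 (0.50). Rad21l stayed under 1 FPKM, so the 5 FPKM minimum left it without a close candidate by construction, and its nearest genes are not given.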

How the data were processed

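The authors aligned reads with TopHat2 and estimated FPKM with Cufflinks 2.2.1 on mm9 per the submitters' processing notes, while the paper names Trimmomatic, mm10 and RefSeq. The 6 deposited tables hold FPKM values that the authors pooled, 1 per gene and cell type, with Ensembl identifiers. They also hold the authors' log2 ratios, test statistics and p-values, which were not used. No per-sample column was found. The values of a cell type came from 1 table (PGC and FGSC, or GV and MII oocytes). Starts of spans count from 0 in the tables and were raised by 1.

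Differences were computed on log2(FPKM + 1), over genes with at least 1 FPKM in one of the compared cell types, and called at 2-fold, with no test. The code of the call was run on simulated 4-fold changes of 200 genes without noise. Their recovery was set by arithmetic, so the run says nothing about the calls made here. Alternatives were a pseudocount of 0.1, no filter or 5 FPKM, 4-fold, equal totals, the median ratio, summed symbols and another source table. Named were all members, genes of the lists with a described role or among the 3 largest differences, and, for 9 members, up to 3 nearest genes, of which 1 is not reported here. Promoters were matched by symbol, Sgol2 as Sgo2a, and protein sequences were not analysed here. Members and lists were chosen with earlier results of these data known. Python 3.11.15, pandas 2.3.3, NumPy 2.4.6 and Matplotlib 3.10.9 were used.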

Additional observations from a re-analysis of the deposited data

How the results depend on the processing

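Counts of members past 2-fold were the same with a pseudocount of 0.1. Summing repeated symbols could not change them, as each member had 1 entry. Dropping the filter could not either, as values under 1 FPKM cannot differ by 2-fold on log2(FPKM + 1). Values from another table gave identical differences, so they are no independent check. Rescaled by the median ratio, Stag2 was no longer called lower in GV oocytes than in E12.5 PGCs (-0.98). Rescaled to equal totals, FGSCs over E12.5 PGCs gave 2 higher and 1 lower members, against 1 and 2 as deposited. With the 1 FPKM filter applied after that rescaling, Rad21l passed it and was the 1 member higher in GV oocytes than in E12.5 PGCs, where none was as deposited, and took the place of Smc1b as the 1 member higher in GV oocytes than in FGSCs. At 4-fold, FGSCs over E12.5 PGCs gave 0 lower members, and 0 were higher and 3 lower in GV oocytes than in FGSCs, and 0 were lower in MII than in GV oocytes. With at least 5 FPKM required, 1 member was lower in MII than in GV oocytes. The 7 members lower in GV oocytes than in E12.5 PGCs became 6 with that filter and 5 at 4-fold. The share of all calls that were higher moved with equal totals from 54.2% to 79.3% for FGSCs over E12.5 PGCs, from 50.1% to 39.2% for GV oocytes over FGSCs and from 56.3% to 36.1% for MII over GV oocytes. With 1 FPKM added to each value, the share of Smc1b became 27.0% in FGSCs and 78.8% in GV oocytes, that of Rec8 4.22% in E12.5 PGCs, 48.9% in FGSCs, 9.62% in GV oocytes and 2.12% in MII oocytes, and that of Stag3 46.1%, 64.1%, 46.2% and 3.59% in the same order. These shifts follow from arithmetic, as an equal amount added to each gene of a family draws the shares toward equal ones. No paired analysis was possible because the deposited values are pooled over libraries, and for the same reason no library could be left out. Depth is unknown, so values under 1 FPKM, such as those of Rad21l and of Rec8 in oocytes, cannot be given a precision.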

Other observations

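Condensin, the complex that compacts mitotic and meiotic chromosomes, and the Smc5/6 complex, which acts in DNA repair, are built on relatives of the cohesin SMC proteins. Of 14 of their subunits, 10 were at least 2-fold higher and 1 was lower in MII than in GV oocytes, beside 39.3% and 30.5% of all genes. After rescaling to equal totals the counts were 8 and 1, beside 24.9% and 44.0% of all genes. Smc4, a core subunit of both condensins, had 888 FPKM in MII oocytes against 65.6 in GV oocytes. Of the condensin II subunits, Ncapg2 had 55.4 FPKM in MII oocytes against 4.33 in GV oocytes and Ncapd3 had 26.8 against 2.22. Ncaph2, the kleisin of condensin II, was the subunit that was lower, with 3.90 FPKM in MII oocytes against 36.6 in GV oocytes, and is named after its values were seen. Against FGSCs, 3 of the 14 were higher in GV oocytes and 5 lower, beside 28.1% and 28.0% of all genes. Ncapg had 46.6 FPKM in GV oocytes against 14.2 in FGSCs, and Ncapd2, a subunit of condensin I, 1.46 against 27.4. Against E12.5 PGCs, 2 were higher and 4 lower, beside 34.3% and 31.3%. Ndnl2 had 10.9 FPKM in GV oocytes against 1.58 in E12.5 PGCs, and Smc2 22.6 against 128. Smc5 had 0.621 FPKM in GV oocytes against 5.61 in FGSCs and 12.9 in E12.5 PGCs. After rescaling to equal totals 2 were higher and 5 lower against FGSCs, beside 24.7% and 38.3%. Against E12.5 PGCs the counts were then 2 and 3, beside 39.2% and 28.8%.

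Between FGSCs and E12.5 PGCs, 2 of the 14 were higher and 4 lower in FGSCs as deposited, beside 24.8% and 21.0% of all genes. After rescaling to equal totals 4 were higher and 0 lower, beside 39.0% and 10.1% of all genes. Ncapd2 had 27.4 FPKM in FGSCs against 7.14 for E12.5 PGCs, a log2 difference past 2-fold under each scaling. Nsmce2 was lower as deposited, at 42.7 FPKM in FGSCs against 135, as was Nsmce1, at 54.8 against 147. Both were within 2-fold after rescaling to equal totals (-0.93 and -0.70).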
